A study of Mus musculus with 8 samples.

Results

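Lipoprotein receptors and vascular lipases are the cell-surface receptors and secreted enzymes through which a cell meets lipoproteins, and their transcripts were followed here in calvarial osteoblast cultures given parathyroid hormone (PTH). The group held 9 genes, the receptors Lrp1, Lrp4, Lrp5, Lrp6, Lrp8 and Vldlr, the lipases Lpl and Lipg, and the lipase inhibitor Angptl4. They were taken by symbol from the 47706 gene entries of the count table, and each of the 9 symbols had 1 entry. The cultures were grown from skullcaps of newborn mice, differentiated for 7 days and exposed for 24 hours either to PTH (4 samples) or to its vehicle (4 samples). The study asked how the hormone changes the metabolism of osteoblasts. All 8 cultures shared the differentiation and, per the study's methods, a serum starvation before treatment. The labels give no strain or genotype, their sample names begin with "Con", which is not spelled out, and they do not say whether the 4 samples of a group came from separate cultures or animals, so p-values measure only the spread between these samples.

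Receptors of the LDL receptor family are single-pass membrane proteins that bind lipoproteins and other extracellular ligands and carry them into the cell, and several of them also transmit signals. In bone, LRP5 and LRP6 are coreceptors for Wnt ligands, and LRP4 binds sclerostin, a Wnt inhibitor. Lipoprotein lipase and endothelial lipase (Lipg) release fatty acids from circulating lipoproteins, and ANGPTL4 inactivates lipoprotein lipase.

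PTH upregulated 5 of the 9 genes and downregulated 2. Lrp8, Lrp4, Lrp6, Lrp1 and the scarce Lipg were higher with PTH, Vldlr and, by a small margin, Lrp5 were lower, and no difference passed the test for Lpl or Angptl4. The test was edgeR's two-sided quasi-likelihood test with Benjamini-Hochberg adjustment over 16736 genes, at an adjusted p under 0.05. At that threshold 45.8% of all tested genes differed, 23.3% higher and 22.5% lower, so a difference by itself does not set a gene apart in these cultures. Without overlap between the PTH and vehicle samples were 5 of the 9 genes with PTH above vehicle and 1 with PTH below, against 43.0% of all tested genes in either direction, 21.2% higher and 21.8% lower. The median log2 fold change was 0.63 over the 9 genes and -0.00 over all tested genes.

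**Figure D1:**
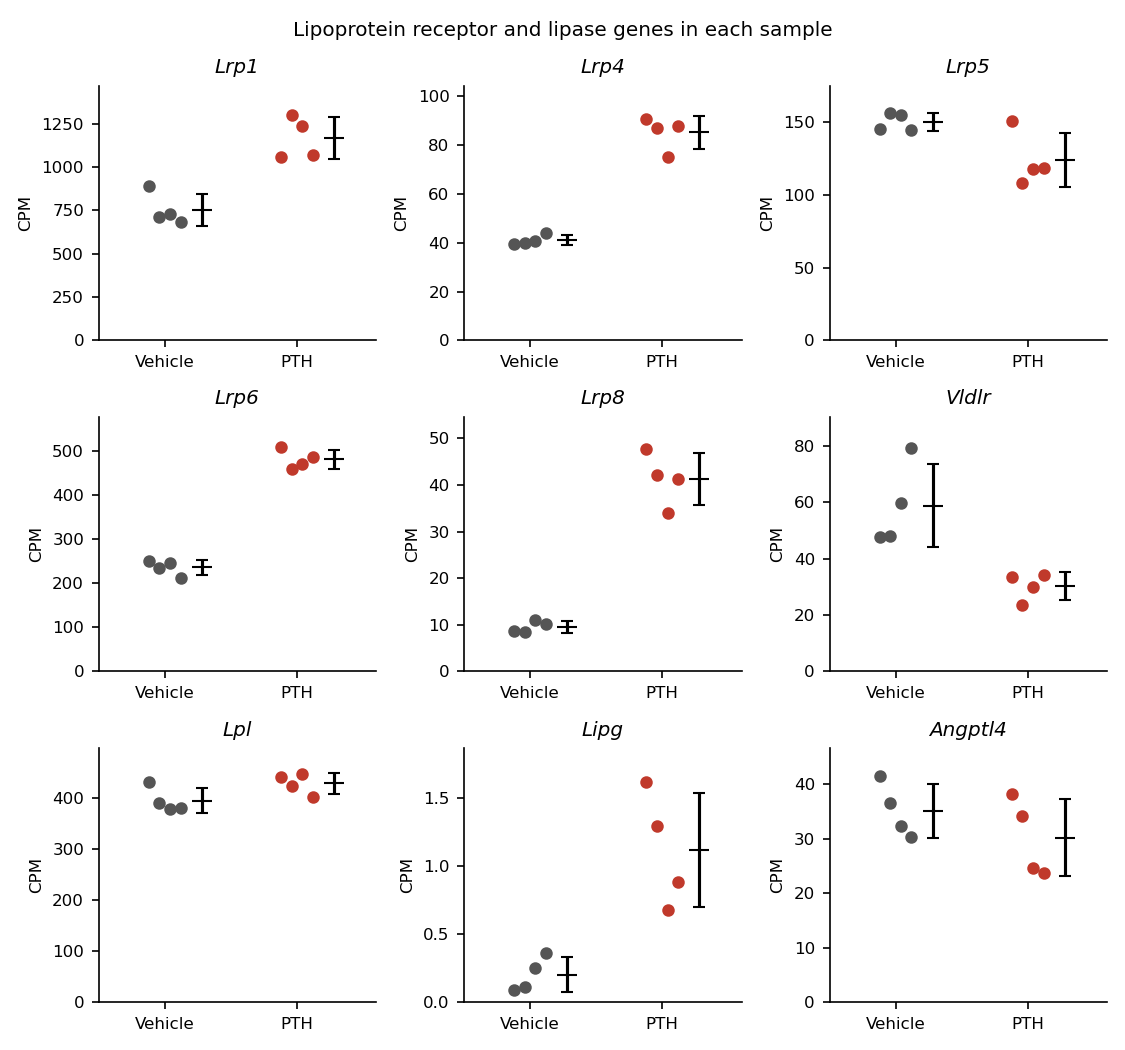
Level of each of the 9 genes in CPM (counts scaled to library size, linear axes from 0), with 1 point per sample and the mean ± SD beside each group of 4. Lrp1, Lrp4, Lrp6, Lrp8 and Lipg had every PTH sample above every vehicle sample, Vldlr had the reverse, and the groups overlapped for Lrp5, Lpl and Angptl4.

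Total counts per sample lay between 33605610 and 56090654. Tnfsf11, a known PTH target that encodes RANKL, measured between 115 and 157 CPM in the PTH samples and between 0.987 and 1.79 CPM in the vehicle samples, which matches the labels. The sample labels name adipogenic differentiation, whereas the series text and the study's methods describe osteoblast cultures. A list of 10 osteoblast markers summed to between 73097 and 105735 CPM with PTH and between 76506 and 87385 CPM with vehicle, and 3 of them were lower with PTH (Runx2, Sp7 and Dmp1). Most of that sum came from Col1a1 (means of 48173 CPM with PTH and 44362 CPM with vehicle) and Col1a2 (35269 and 35071 CPM). A list of 10 adipocyte markers summed to between 107 and 124 CPM with PTH and between 109 and 134 CPM with vehicle, and 1 of the 9 tested was lower (Pparg). Most of the adipocyte sum came from Cebpa (means of 72.4 CPM with PTH and 75.6 CPM with vehicle). A list of 14 macrophage markers summed to between 1776 and 2272 CPM with PTH and between 1137 and 1858 CPM with vehicle, and 3 of the 14 passed the test, all higher with PTH (Lyz2, Tyrobp and Cd14). At the same threshold, 23.3% of all tested genes were higher and 22.5% lower. A list of 10 endothelial markers summed to between 9.33 and 11.3 CPM with PTH and between 9.39 and 10.8 CPM with vehicle, most of it from Tek (means of 3.46 and 4.87 CPM) and Egfl7 (3.03 and 2.81 CPM), and Emcn was at 0 in every sample.

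Promoter sequence was at hand for 3 of the 9 genes in RefSeq's mouse table (GRCm38.p6). Lrp1 and Vldlr are shown because Lrp1 was the most abundant receptor of the group and was upregulated by PTH, and Vldlr was the receptor with the largest decrease. The third gene was Lrp8, the receptor with the largest increase, and its promoter sequence is neither shown nor described here. Each sequence is the 250 bases before a RefSeq transcript start, written 5′ to 3′ on the gene's strand. The Lrp1 window is chr10:127621149-127621398 on the minus strand, directly before the annotated gene. The Vldlr window is chr19:27216770-27217019 on the plus strand and lies inside the gene as GENCODE M21 draws it, before a later start site. Capitals mark matches to the GC box (GGGCGG on either strand) and to the NRF1 site (GCGCATGCG on either strand, where the match on each strand overlaps the other).
Lrp1: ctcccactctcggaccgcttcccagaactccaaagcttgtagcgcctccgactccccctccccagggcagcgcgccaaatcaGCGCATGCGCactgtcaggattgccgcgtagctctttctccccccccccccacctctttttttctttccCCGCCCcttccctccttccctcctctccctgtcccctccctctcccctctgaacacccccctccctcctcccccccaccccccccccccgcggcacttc
Vldlr: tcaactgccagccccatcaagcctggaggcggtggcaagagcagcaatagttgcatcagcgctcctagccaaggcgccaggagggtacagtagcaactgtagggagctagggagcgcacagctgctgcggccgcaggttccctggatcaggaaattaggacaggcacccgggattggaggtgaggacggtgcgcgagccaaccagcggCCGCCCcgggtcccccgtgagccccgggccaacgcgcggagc

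Both windows were rich in G and C, with 67.2% in Lrp1 and 66.4% in Vldlr against a median of 52.4% over 32817 RefSeq windows of the same length. CG pairs numbered 13 in Lrp1 and 18 in Vldlr. Each window held 1 GC box, as did 32.7% of all windows, and Lrp1 held the NRF1 site, as did 1.44%. Neither window held the cyclic AMP response element TGACGTCA (1.55% of all windows), its core TGACG (17.7%, which also counts windows with the full element), the AP-1 site TGANTCA (6.75%) or the E-box CACGTG (6.02%). These letters describe only the windows shown, out of 6 at hand for the 3 genes, and are no measure of binding.

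Among the endocytic receptors, Lrp1 was upregulated 1.55-fold. Lrp1 is the large receptor that clears apolipoprotein E remnants, protease complexes and matrix proteins, and it lies on chromosome 10 from 127538161 to 127621148 (minus strand, GRCm38), with 89 exons and 14888 bases in its longest annotated transcript. It measured 1057, 1303, 1237 and 1071 CPM in PTH samples 1 to 4 and 891, 715, 730.3 and 683 CPM in vehicle samples 1 to 4. All PTH samples were above all vehicle samples, and the nearest were PTH sample 1 and vehicle sample 1. The means were 1167 ± 122 and 755 ± 92.9 CPM (SD, n = 4 each), with a log2 fold change of 0.63 (SE 0.103, 95% interval 0.40 to 0.85, adjusted p = 3.65e-04). An exact two-sided permutation test of log2(CPM + 0.1) gave p = 0.0286, the smallest that 70 assignments of 4 and 4 samples allow.

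Macrophages also express Lrp1, and their marker sum was higher in 3 of the 4 PTH samples than in any vehicle sample. Most of that sum was Lyz2 (means of 1417 CPM with PTH and 914 CPM with vehicle). The median over the 14 markers lay between 44.2 and 50.5 CPM in the PTH samples and between 29.6 and 52.2 CPM in the vehicle samples, with vehicle sample 4 the highest of all. The log2 fold changes of these markers ran from 0.19 (Csf1r) to 0.86 (Tyrobp), with a median of 0.33, and 3 passed the test. The part of these cells in the Lrp1 result was not tested. In bulk RNA of this kind, a change in the share of cells of a type and a change in RNA per cell cannot be told apart.

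Lrp4 roughly doubled with PTH. LRP4 is the receptor for agrin at the neuromuscular junction and anchors sclerostin in bone, and its gene spans 91457511 to 91513779 on the plus strand of chromosome 2, with 38 exons in a transcript of 7926 bases. It measured 90.8, 87.1, 75.2 and 87.7 CPM with PTH and 39.4, 40.1, 40.7 and 43.9 CPM with vehicle. The vehicle samples lay close together (coefficient of variation 4.89%), and the lowest PTH sample, sample 3, was far above the highest of them. The fold was 2.08 (log2 fold change 1.05, SE 0.0732, 95% interval 0.89 to 1.21, adjusted p = 2.33e-07), from 41.0 ± 2.01 to 85.2 ± 6.89 CPM.

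Of the paired Wnt coreceptors, Lrp6 rose with PTH, while Lrp5 was lower by a small margin with overlapping groups. Lrp6, on chromosome 6 from 134446476 to 134566965 (minus strand, 23 exons), measured 511, 461, 472 and 487 CPM with PTH and 251, 235, 247 and 212 CPM with vehicle. There was no overlap, and the spread within each group was small beside the gap. The log2 fold change was 1.03 (SE 0.0732, 95% interval 0.87 to 1.19, adjusted p = 2.84e-07), a 2.04-fold rise close to that of Lrp4.

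Lrp5, on chromosome 19 from 3584828 to 3686564 (minus strand, 23 exons), measured 151, 108, 118 and 119 CPM with PTH and 146, 156, 155 and 144 CPM with vehicle. PTH samples 2 to 4 were below every vehicle sample, and PTH sample 1 lay within the vehicle range. The log2 fold change was -0.28 (SE 0.0937, 95% interval -0.48 to -0.07, adjusted p = 0.0293), and the exact permutation test gave p = 0.0857. When samples were dropped singly, 6 of 8 refits lost the call, with an adjusted p of up to 0.0875, while the fit without PTH sample 1 gave -0.39 (adjusted p = 4.02e-04). Lrp5 transcripts share stretches of at least 150 bases at 95% identity or more with transcripts of 3 other genes, so its counts carry that uncertainty.

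The balance of the coreceptors, taken within each sample, differed between the groups. Per kilobase of longest transcript, Lrp6 exceeded Lrp5 by a ratio of 1.64, 1.42, 1.51 and 1.39 in the vehicle samples and of 3.21, 4.04, 3.79 and 3.89 in the PTH samples. The groups did not overlap, with means of 1.49 ± 0.109 and 3.73 ± 0.362 (n = 4 each), a 2.50-fold difference (exact permutation test, two-sided, p = 0.0286, 0.0429 after adjustment over the 3 ratios tested). This ratio does not depend on how the libraries were scaled. Lrp6 alone already separated the groups, by a wider factor than Lrp5 varied over all samples. The smallest possible p for this ratio was thus bound to appear, and it adds nothing to the results for the single genes.

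**Figure D2:**
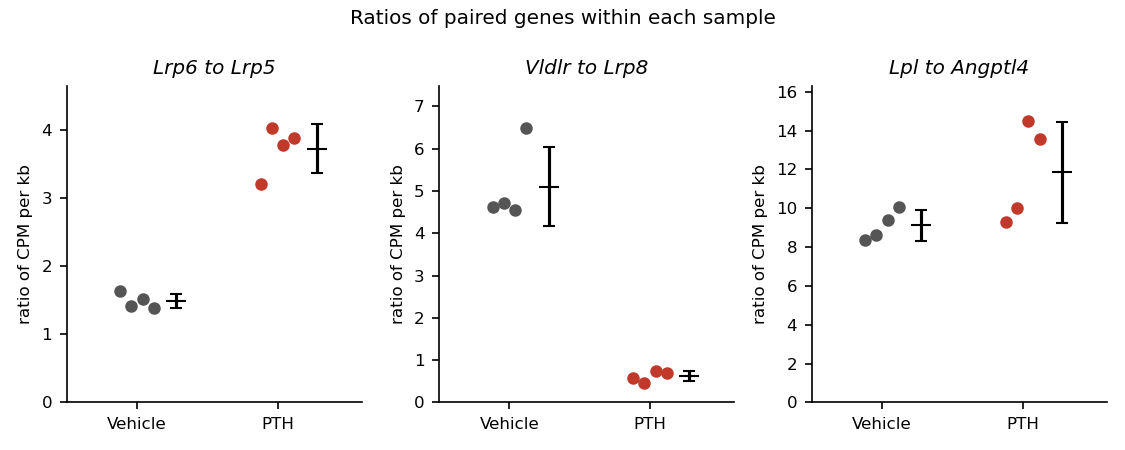
Ratio of CPM per kilobase for the pairs Lrp6 to Lrp5, Vldlr to Lrp8 and Lpl to Angptl4 in each sample (linear axes from 0), with mean ± SD beside each group of 4. The first ratio was higher and the second lower in every PTH sample than in any vehicle sample, while the third overlapped.

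The receptors for reelin and apolipoprotein E, Lrp8 (also called ApoER2) and Vldlr, diverged. Lrp8, on chromosome 4 from 107802261 to 107876840 (plus strand, 16 exons, longest transcript 6627 bases), measured 47.7, 42.2, 33.9 and 41.3 CPM with PTH and 8.59, 8.47, 11.0 and 10.1 CPM with vehicle. The lowest PTH sample was well above the highest vehicle sample. The rise was 4.32-fold (log2 fold change 2.11, SE 0.119, 95% interval 1.85 to 2.37, adjusted p = 3.74e-08), from 9.54 ± 1.21 to 41.3 ± 5.64 CPM. Its absolute log2 fold change exceeded that of 96.8% of all tested genes. The antisense genes annotated over Lrp8, Lrp8os1 and Lrp8os2, had at most 3 counts in any sample and share no exon bases with it.

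Vldlr, which in other tissues takes up triglyceride-rich lipoproteins alongside lipoprotein lipase, is on chromosome 19 from 27216484 to 27254231 (plus strand, 19 exons, longest transcript 7971 bases). It measured 33.6, 23.7, 29.9 and 34.2 CPM with PTH and 47.8, 48.1, 59.9 and 79.3 CPM with vehicle. Every PTH sample was below every vehicle sample, and vehicle sample 4 stood above the other vehicle samples. The log2 fold change was -0.95 (SE 0.162, 95% interval -1.31 to -0.60, adjusted p = 4.82e-04), from 58.8 ± 14.8 to 30.3 ± 4.81 CPM, and without vehicle sample 4 it was -0.78 (adjusted p = 8.43e-04). Vehicle sample 4 also had the highest levels of the osteoblast markers Ibsp (2073 CPM, against 1086 to 1308 in the other vehicle samples), Sp7 (142 CPM) and Dmp1 (26.5 CPM), and Sp7 and Dmp1 were lower with PTH (log2 fold changes -1.78 and -1.12, adjusted p = 4.45e-06 and 8.06e-04). Runx2 was also lower (-0.33, adjusted p = 0.00362). Ibsp itself did not pass (-0.21, adjusted p = 0.382), nor did 6 of the other markers. Those 6 were Alpl (0.28), Col1a1 (0.12), Bglap (0.04), Col1a2 (0.01), Spp1 (-0.29) and Phex (-0.43). The median log2 fold change over the 10 markers was -0.25. The part of these markers in the Vldlr result was not tested.

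The ratio of Vldlr to Lrp8 per kilobase was 4.62, 4.72, 4.55 and 6.50 in the vehicle samples and 0.586, 0.468, 0.732 and 0.688 in the PTH samples. Vldlr was thus the more abundant of the pair in every vehicle sample and Lrp8 in every PTH sample. The means were 5.10 ± 0.938 and 0.618 ± 0.118 (exact permutation test, two-sided, p = 0.0286, adjusted over 3 ratios 0.0429, n = 4 each). Both genes already separated the groups, in opposite directions. The p of the ratio was therefore bound to be the smallest possible and adds nothing to the results for the single genes.

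**Figure D3:**
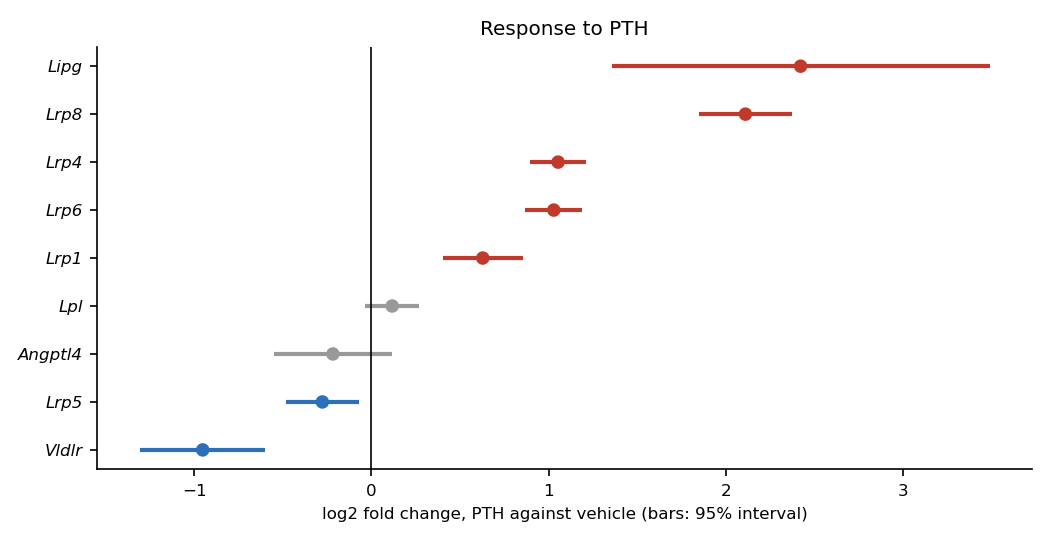
Log2 fold change of the 9 genes, PTH against vehicle (edgeR), with bars for the 95% interval, red for higher, blue for lower and gray for genes that did not pass the test. Lipg had the widest interval, from 1.36 to 3.49, and the intervals of Lpl and Angptl4 held 0.

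Of the lipases, Lpl was abundant and Lipg scarce. Lpl encodes lipoprotein lipase, which hydrolyzes triglyceride in chylomicrons and VLDL, and lies on chromosome 8 from 68880491 to 68907448 (plus strand, 10 exons, longest transcript 4115 bases). It measured 442, 424, 446 and 402 CPM with PTH and 432, 390.5, 378 and 380.4 CPM with vehicle. Only vehicle sample 1 reached into the range of the PTH samples, and the means of 429 ± 20.2 and 395 ± 25.0 CPM differed by 0.12 on the log2 scale (SE 0.0702, adjusted p = 0.196). The 95% interval ran from -0.04 to 0.27, and its upper end was below the log2 fold changes of Lrp4 and Lrp6. Parts of Lpl transcripts resemble transcripts of 2 other genes by the same measure as for Lrp5. Lpl is also made by adipocytes, whose defining marker Adipoq measured between 2.83 and 4.67 CPM with PTH and between 2.71 and 4.48 CPM with vehicle. The macrophage markers given above summed to between 1776 and 2272 CPM with PTH and between 1137 and 1858 CPM with vehicle. The part of either cell type in the Lpl level was not tested.

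Lipg encodes endothelial lipase, a phospholipase that acts mainly on HDL, and lies on chromosome 18 from 74939322 to 74961263 (minus strand, 10 exons). It had 83, 43, 26 and 37 counts in the PTH samples and 4, 5, 12 and 18 in the vehicle samples, or 1.62, 1.29, 0.679 and 0.880 CPM against 0.0892, 0.115, 0.250 and 0.363 CPM. The groups did not overlap, although both spread widely (coefficients of variation 37.7% and 62.2%). The fold was 5.37 (log2 fold change 2.42, SE 0.489, adjusted p = 0.00155), with a 95% interval that reached from 1.36 to 3.49. Only 11.8% of tested genes had a lower mean. Of the endothelial markers, 7 of 10 were tested, of which 1 was higher (Kdr) and 1 lower (Tek). Higher were 23.3% and lower 22.5% of all tested genes. The defining endothelial marker Cdh5 lay between 0.234 and 0.730 CPM in all samples.

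Angptl4, a secreted inhibitor of lipoprotein lipase and a target of PPAR and hypoxia signaling, is on chromosome 17 from 33773750 to 33781830 (minus strand, 7 exons). It measured 38.2, 34.1, 24.7 and 23.8 CPM with PTH and 41.5, 36.5, 32.3 and 30.3 CPM with vehicle. The groups overlapped, with PTH samples 3 and 4 below all others. The log2 fold change was -0.22 (SE 0.152, 95% interval -0.55 to 0.11, adjusted p = 0.268), and without PTH sample 1 it was -0.36 (adjusted p = 0.0489). The transcript of Pparg, one of the PPAR receptors, measured 5.67 ± 0.573 CPM with PTH and 16.0 ± 1.42 CPM with vehicle (log2 fold change -1.50, adjusted p = 3.66e-07). Any part of Pparg in the Angptl4 level was not tested.

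The ratio of Lpl to Angptl4 per kilobase was 9.30, 9.99, 14.5 and 13.6 with PTH and 8.36, 8.60, 9.41 and 10.1 with vehicle. These ranges overlapped, and the means of 11.8 ± 2.58 and 9.11 ± 0.790 did not differ beyond the spread (exact permutation test, two-sided, p = 0.143, n = 4 each).

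**Figure D4:**
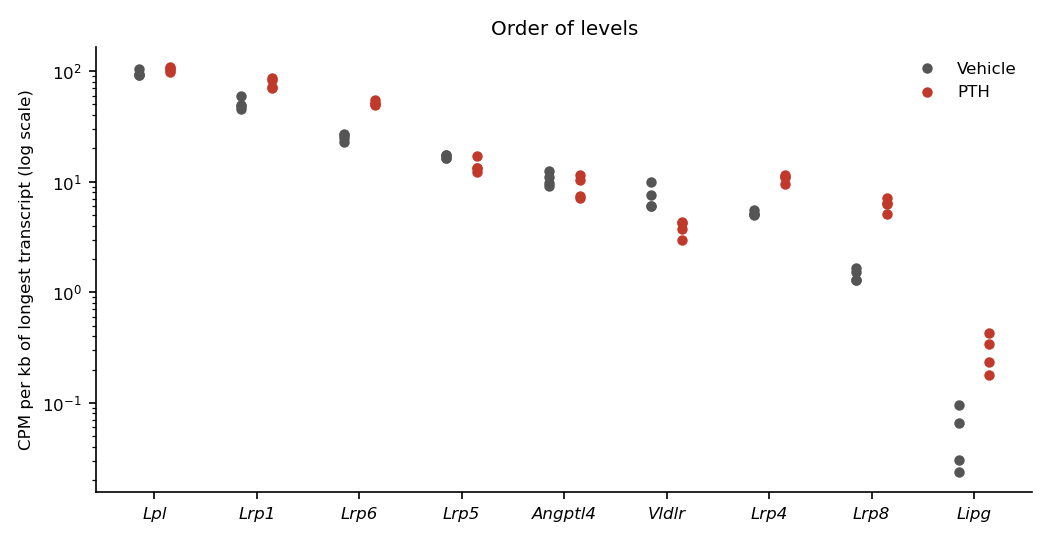
Level of each gene in CPM per kilobase of its longest annotated transcript (log axis), with 1 point per sample, vehicle gray and PTH red, ordered by the vehicle mean. Lpl led and Lipg was last in both groups, and Lrp8 overtook Vldlr with PTH.

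Compared per kilobase, the order of levels in vehicle was Lpl (96.0 CPM per kilobase), Lrp1 (50.7), Lrp6 (25.2), Lrp5 (16.9), Angptl4 (10.6), Vldlr (7.37), Lrp4 (5.18), Lrp8 (1.44) and Lipg (0.0540). Angptl4 and Vldlr overlapped between samples, and all other neighbors in that order were separate. With PTH the order was Lpl (104), Lrp1 (78.4), Lrp6 (51.5), Lrp5 (14.0), Lrp4 (10.8), Angptl4 (9.13), Lrp8 (6.23), Vldlr (3.81) and Lipg (0.295), in which only Lrp4 and Angptl4 overlapped as neighbors. Lrp4 thus passed Vldlr and stood beside Angptl4, and Lrp8 passed Vldlr.

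The genes whose pattern over the 8 samples was most like that of Lrp8 were Gclc, Txnrd1 and Bdh1. Their Pearson correlations of log2 CPM with Lrp8 were 0.998, 0.997 and 0.997, but 929 of the 9791 genes compared had a correlation over 0.95, since the 8 samples share the same split by treatment. Gclc encodes a subunit of the enzyme that limits glutathione synthesis, Txnrd1 a thioredoxin reductase and Bdh1 a ketone body dehydrogenase.

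Other members of the LDL receptor family were mixed in direction. Of 10, 2 passed as higher, 2 as lower and 6 did not pass, with a median log2 fold change of 0.16. The shares over all tested genes were 23.3% higher and 22.5% lower. Lrp2, or megalin, was scarce but did not overlap, at 1.17, 1.44, 1.96 and 2.16 CPM against 0.513, 0.528, 0.376 and 0.464 CPM (log2 fold change 1.83, adjusted p = 4.60e-04). Lrp3 and Ldlrad3 were lower by a small margin (log2 fold changes -0.30 and -0.42, adjusted p = 0.0217 and 0.00884). Lrp10, Lrp12 and Sorl1 were among those that did not pass (-0.15, 0.21 and 0.32, adjusted p = 0.194, 0.0798 and 0.0785).

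Among 14 genes for receptor chaperones, adaptors and turnover factors, 12 were tested, of which 6 were lower and 1 higher. Of all tested genes, 22.5% were lower and 23.3% higher. The list had a median log2 fold change of -0.37. Apbb1, a cytoplasmic partner of LRP1 and of the amyloid precursor protein, fell by 0.99 on the log2 scale, from 28.5 ± 2.02 to 14.4 ± 1.79 CPM (adjusted p = 6.08e-06). Also lower were the adaptor Dab2 (-0.44, adjusted p = 1.07e-04), the ubiquitin ligase Mylip, which targets VLDLR and LRP8 for degradation (-0.40, adjusted p = 1.79e-04), and the Wnt receptor ligases Znrf3 (-0.53, adjusted p = 0.00433) and Rnf43 (-0.96, adjusted p = 0.0343). None of these genes overlapped between groups, as was so in that direction for 21.8% of all tested genes.

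Kremen1, a coreceptor through which DKK proteins remove LRP6 from the surface, was the 1 higher member of that list, at 267, 174.5, 174.5 and 219.5 CPM with PTH and 137, 143, 137 and 122 CPM with vehicle (0.63, adjusted p = 0.00133). The chaperones Lrpap1 and Mesd, needed for folding of the receptors, were near their vehicle levels (log2 fold changes -0.04 and -0.12, adjusted p = 0.788 and 0.146), and Snx17 and Musk did not pass (0.12 and -0.33, adjusted p = 0.194 and 0.367). Dab1, the adaptor of reelin signaling, and Kremen2 had no counts in any sample.

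Among 14 genes for ligands of these receptors, 12 were tested, of which 3 were higher and 3 lower, with a median log2 fold change of 0.14. For comparison, 23.3% of all tested genes were higher and 22.5% lower. Dkk1, a secreted inhibitor that binds LRP5 and LRP6, measured 6.76, 6.96, 11.6 and 16.4 CPM with vehicle and 0.234, 0.241, 0 and 0.380 CPM with PTH (log2 fold change -5.57, adjusted p = 1.97e-06). Dkk2, of the same family, rose from 16.2 ± 2.03 to 25.3 ± 2.56 CPM (0.64, adjusted p = 4.02e-04). Sost, which encodes sclerostin, had no counts in any sample, and Sostdc1 did not pass (-0.41, adjusted p = 0.151).

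Of the ligands that LRP1 clears, the protease Plat (log2 fold change -0.42, adjusted p = 0.0336) and the matrix protein Thbs1 (-0.66, adjusted p = 2.89e-04) fell. Apoe, the apolipoprotein recognized by most of these receptors, measured 222, 245, 216 and 209.6 CPM with PTH and 208, 163, 159 and 179.6 CPM with vehicle, with no overlap but a narrow gap at vehicle sample 1 (log2 fold change 0.33, adjusted p = 0.00999). Apoe is abundant in macrophages as well, whose markers are given above, and their part in its change was not tested. Reln, the reelin ligand of Lrp8 and Vldlr, was near the limit of detection, at 0.585, 0.421, 0.287 and 0.571 CPM with PTH and 0, 0.0459, 0.459 and 0.202 CPM with vehicle (1.37, adjusted p = 0.162).

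Among 16 other genes of the lipases and their regulation, 11 were tested, of which 5 were higher and 1 lower, with a median log2 fold change of 0.08. Beside these, 23.3% of all tested genes were higher and 22.5% lower. Lysosomal acid lipase, Lipa, which digests lipoprotein lipids after receptor uptake, rose by 0.33 on the log2 scale, from 154 ± 13.2 to 194 ± 17.5 CPM (adjusted p = 0.00632), and Lipe, hormone-sensitive lipase, by 0.38, from 10.2 ± 1.30 to 13.3 ± 1.22 CPM (adjusted p = 0.0162). Pnpla2, adipose triglyceride lipase, fell from 24.6 ± 1.27 to 19.3 ± 1.88 CPM (-0.35, adjusted p = 0.00564). Sdc1, a heparan sulfate proteoglycan that binds lipoproteins and lipases, rose (0.45, adjusted p = 0.00613), as did Pcsk5, a proprotein convertase that cleaves endothelial lipase (0.25, adjusted p = 0.0218), and Liph at fewer than 1.1 CPM (2.21, adjusted p = 0.0130). Lmf1 and Sel1l, which act in lipase maturation, did not pass (-0.14 and -0.06, adjusted p = 0.288 and 0.569), nor did Lipc, Furin or Pcsk6. Gpihbp1, which holds lipoprotein lipase on capillary endothelium, had no counts in 7 of the 8 samples.

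**Figure D5:**
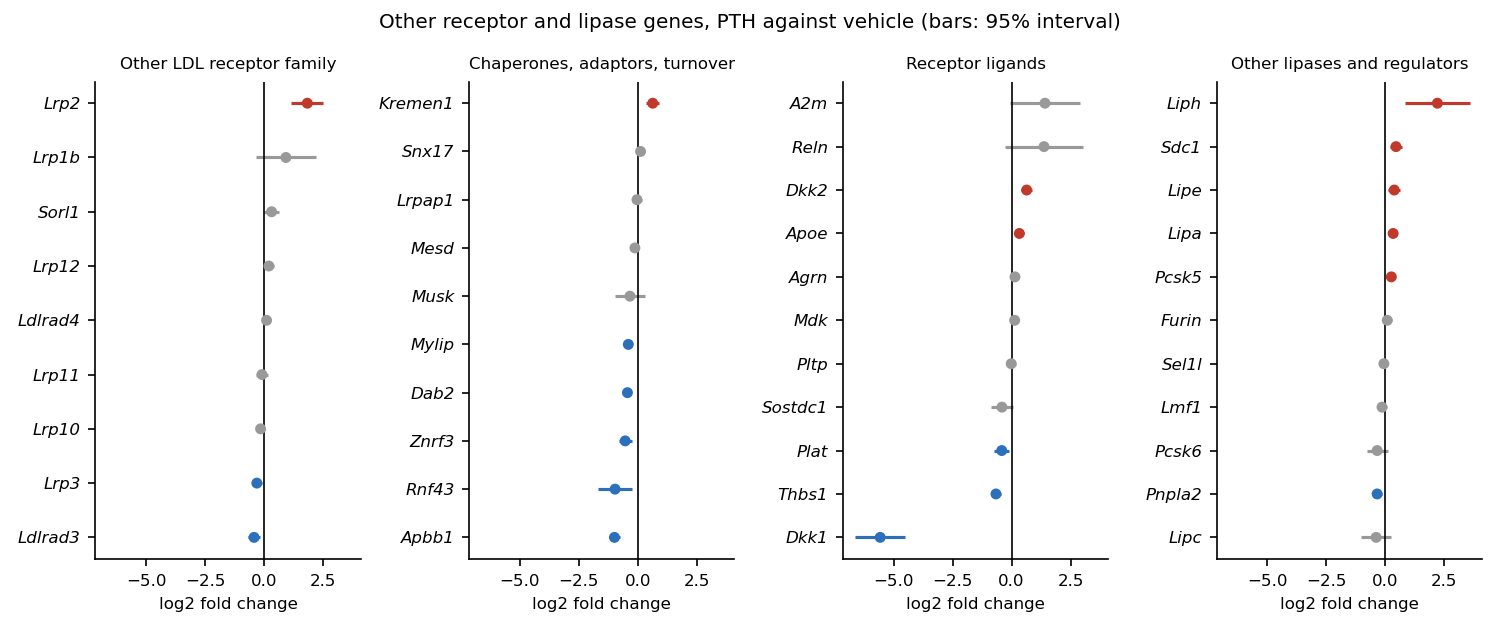
Log2 fold change, PTH against vehicle, of tested genes reported here from the lists of other LDL receptor family members, chaperones, adaptors and turnover factors, ligands, and other lipases and regulators, with bars for the 95% interval and colors as for the 9 genes. Dkk1 lay at -5.57 and Liph at 2.21, and in the panel of chaperones, adaptors and turnover factors Kremen1 was the higher gene.

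The median response was higher among genes with short transcripts, a difference that was not tested. The median log2 fold change was 0.39 for 1592 genes with transcripts under 1 kilobase, 0.05 from 1 to 2, -0.06 from 2 to 4 and -0.07 from 4 to 7 kilobases, and -0.01 for 1330 genes over 7 kilobases, the class of Lrp1, Lrp4, Lrp5, Lrp6 and Vldlr. With an offset for transcript length, the 7 calls among the 9 genes were the same as without it.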

How the data were processed

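Poly(A) RNA of 8 samples was sequenced. Per the labels and the study's methods, the authors aligned reads to GRCm38 (mm10) with HISAT2, assembled transcripts with StringTie and deposited whole-number counts per gene, not normalized, written by StringTie's companion script from transcript coverage. The annotation version, the read length given to that script and the strand setting are not given in the sources used here. Treatments came from the labels, and columns were matched to samples by name.

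PTH was compared with vehicle in edgeR 4.0.16 (R 4.3.3) by TMM normalization, filterByExpr (minimum count 10, minimum total 15) and the two-sided quasi-likelihood test, with Benjamini-Hochberg adjustment over 16736 genes and a threshold of 0.05, with no minimum fold change. CPM used TMM-normalized library sizes, and SD is over 4 samples. For single genes and ratios, exact permutation tests of log2 values were run (pseudocount 0.1 for CPM) with SciPy 1.17.1. The correlations of log2 CPM used a prior count of 2. Positions and transcript lengths came from GENCODE M21, and similar sequence was found with blastn 2.17.0 (at least 150 bases, 95% identity). Other tools were Python 3.11.15, pandas 2.3.3, NumPy 2.4.6 and matplotlib 3.10.9. The steps were tested on simulated data in which a far smaller share of genes changed than differed here. That simulation does not check the steps under so broad a response.

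The 9 genes and the lists were chosen with earlier results of these data known. The rule for named genes took all 9 genes, any gene on the 4 lists of receptor and lipase genes or on the marker lists, and the 3 genes (mean of at least 10 CPM) most correlated with the most changed of the 9 at that level. Tnfsf11 was added as a check of the labels. Some genes of the lists are counted in them but not reported here by name. Alternatives were DESeq2 1.42.0 (the authors' tool), DESeq2 size factors, no filter on low counts, a replicate block, omission of each sample, counts summed by symbol, halved counts and a transcript length offset. Depth lay between 33605610 and 56090654 counts per sample, which limits precision for genes with few counts such as Lipg. No 2 samples of a group were duplicates (lowest chi-square per gene between samples 11.0). The value reached 32.6 among vehicle samples and 117 among PTH samples. PTH sample 1 stood furthest from PTH samples 2 (117) and 3 (77.2), and was nearer to PTH sample 4 (28.5).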

Additional observations from a re-analysis of the deposited data

How the results depend on the processing

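Under 15 alternatives, 128 of 135 fold changes of the 9 genes kept their direction and their side of the threshold, and none reversed. Of the other 7, 6 were Lrp5 without 1 sample (adjusted p between 0.0517 and 0.0875) and 1 was Angptl4 without PTH sample 1. The call for Lrp5 held in 9 of 15 alternatives, with log2 fold changes between -0.39 and -0.21. Across alternatives Lrp1 ranged from 0.55 to 0.71, Lrp4 from 1.02 to 1.11, Lrp6 from 0.98 to 1.06, Lrp8 from 2.03 to 2.19, Vldlr from -1.05 to -0.78 and Lipg from 2.17 to 2.85, and each passed in all 15. Lpl passed in 0 of 15 (adjusted p between 0.0602 and 0.408). The number of differing genes ranged from 6671 to 8074 over all genes from 6 to 8 over the 9, from 3 to 5 over the other LDL receptor family, from 6 to 7 over chaperones, adaptors and turnover factors, and from 5 to 6 over the ligands and over the other lipase genes.

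Over all tested genes, samples with the same number did not deviate together (correlations between -0.04 and 0.03, and 0 of 4 PTH samples were closest to their own number). This does not settle whether same-numbered samples share a culture or animal, since single genes can still go with the number and the labels give no pairing. With the sample number as a replicate block, 7003 genes differed, among them 7 of the 9, 5 higher and 2 lower (Lrp5 -0.29, adjusted p = 0.0418). Of the other lists 3 of the LDL receptor family, 7 chaperones, adaptors and turnover factors, 6 ligands and 6 lipase genes differed under the block, and Angptl4 was at -0.24 (adjusted p = 0.0519).

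Counts from transcript coverage can split reads between genes of similar sequence, and the labels do not say which samples share a culture or animal. Halving the counts, as a trial of another read length in the counting, changed no call among the 9 genes.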
